A study of Arabidopsis thaliana with 56 samples.

Results

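AGL62 (AT5G60440) and AGL80 (AT5G48670) are 2 type I MADS-box genes of Arabidopsis thaliana, and they were found by their identifiers among 32678 genes in the mRNA count files. Both lie on chromosome 5 in the RefSeq TAIR10.1 gene table. In that table no annotated gene overlaps either of them. The neighbours of AGL62 are AT5G60430 and AT5G60450, and those of AGL80 are AT5G48660 and AT5G48675.

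MADS-box proteins are transcription factors that bind DNA as dimers, and the type I group acts mainly in the female gametophyte and the seed. AGL62 is known as a factor of the syncytial endosperm, the phase in which nuclei divide without cell walls. Endosperm that lacks AGL62 forms cell walls too early, and the gene is normally switched off around the time when walls form. It is also a known target of the FIS form of Polycomb repressive complex PRC2, which deposits H3K27me3, and it is needed for auxin to leave the endosperm for the seed coat. AGL80 is required in the central cell, the cell of the female gametophyte from which the endosperm arises, and its protein dimerises there with AGL61.

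The mRNA libraries were made from 6C nuclei sorted from seeds, a ploidy class of the triploid endosperm, and each sample used seeds of 1 to 5 siliques. There were 3, 5 and 4 libraries of crwn1/2 at 6, 7 and 8 days after pollination (DAP), and 4 and 4 libraries of WT at 6 and 7 DAP. The study describes crwn1/2 as a loss of CRWN1 and CRWN2, lamina-like proteins under the nuclear envelope. Alleles, background and the direction of the crosses were not given in the sources used here. The 56 samples of the study also cover 12 samples each of H3K27me3, total H3 and IgG, which were not analysed here at these genes. WT at 8 DAP was not among the groups, so the crwn1/2 libraries of 8 DAP were compared with the WT libraries of 7 DAP, where genotype and day cannot be told apart. Cell wall formation itself was not measured in these libraries.

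Total counts ranged from 6986418 to 14359413 per library, and values are given as CPM, counts relative to the library total after TMM scaling. CRWN1 averaged 81.2 ± 32.6 CPM in crwn1/2 and 116 ± 30.9 CPM in WT at 6 DAP, and 89.7 ± 20.6 CPM in crwn1/2 and 90.9 ± 16.7 CPM in WT at 7 DAP (SD), and neither difference passed the edgeR threshold (adjusted p 0.192 and 0.962). Without the alleles it is not known whether the counted CRWN1 reads lie outside the lesion, so its level does not check the genotype labels. CRWN2 averaged 29.2 ± 6.91 CPM in crwn1/2 and 69.9 ± 16.0 CPM in WT at 6 DAP (SD), a difference on the log2 scale of -1.26 (edgeR p 0.00392 after Benjamini-Hochberg, BH, adjustment). At 7 DAP CRWN2 averaged 26.98 ± 7.61 CPM in crwn1/2 and 41.3 ± 4.43 CPM in WT (SD), with a difference on the log2 scale of -0.61 (edgeR adjusted p 0.0618). Libraries of 1 group differed by more than sampling noise in all 31 pairs, and the labels do not say whether they came from separate plants, so p-values measure the spread between these libraries.

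AGL62 had its lowest mean in WT at 6 DAP. It was 2.89-fold higher in crwn1/2 than in WT at 6 DAP, and 3.08-fold higher in WT at 7 DAP than in WT at 6 DAP. At 7 DAP the genotypes were close. AGL80 passed the threshold in no comparison, and its libraries overlapped between every pair of groups compared.

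At 6 DAP AGL62 stood at 15.1, 5.20 and 4.00 CPM in the 3 crwn1/2 libraries, from 154, 51 and 45 counts. In the 4 WT libraries it stood at 2.29, 2.80, 3.37 and 2.72 CPM, from 19, 23, 26 and 24 counts. Every crwn1/2 library was above every WT library, but crwn1/2 replicate 1 was far above the others. The counting intervals (exact Poisson, 95%, counting error only) of 131 to 180 counts in replicate 1, 38.0 to 67.1 in replicate 2 and 32.8 to 60.2 in replicate 3 do not meet for replicate 1.

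The groups averaged 8.09 ± 6.08 CPM in crwn1/2 (SD, n = 3) and 2.79 ± 0.447 CPM in WT (SD, n = 4) at 6 DAP. The log2 difference was 1.53 (SE 0.367, 95% interval 0.77 to 2.29, BH-adjusted edgeR p 0.00734). AGL62 was thus among the features called higher in crwn1/2 at 6 DAP, which were 6.38% of the 24696 tested, beside 6.26% called lower and 12.6% in all. Libraries of crwn1/2 that all lay above those of WT were found for 10.8% of features. In bulk libraries, more nuclei that express a gene and more RNA per nucleus cannot be told apart.

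The call at 6 DAP rested on crwn1/2 replicate 1. Without that library AGL62 differed by 0.74 (SE 0.331, BH-adjusted edgeR p 0.147), while on leaving out each of the other 6 libraries in turn it remained past the threshold. It also missed the threshold when the spread was estimated from the 2 groups compared alone, with 1.51 (edgeR adjusted p 0.0633). Replicate 1 was at least 2-fold above both other crwn1/2 libraries of that day for 4.62% of features. The share was 5.61% for replicate 2 and 3.89% for replicate 3. Among 3879 features with a mean of 4 to 12 CPM, as AGL62 had, it was 3.48% for replicate 1. These measures were chosen after the values were seen.

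**Figure D1:**
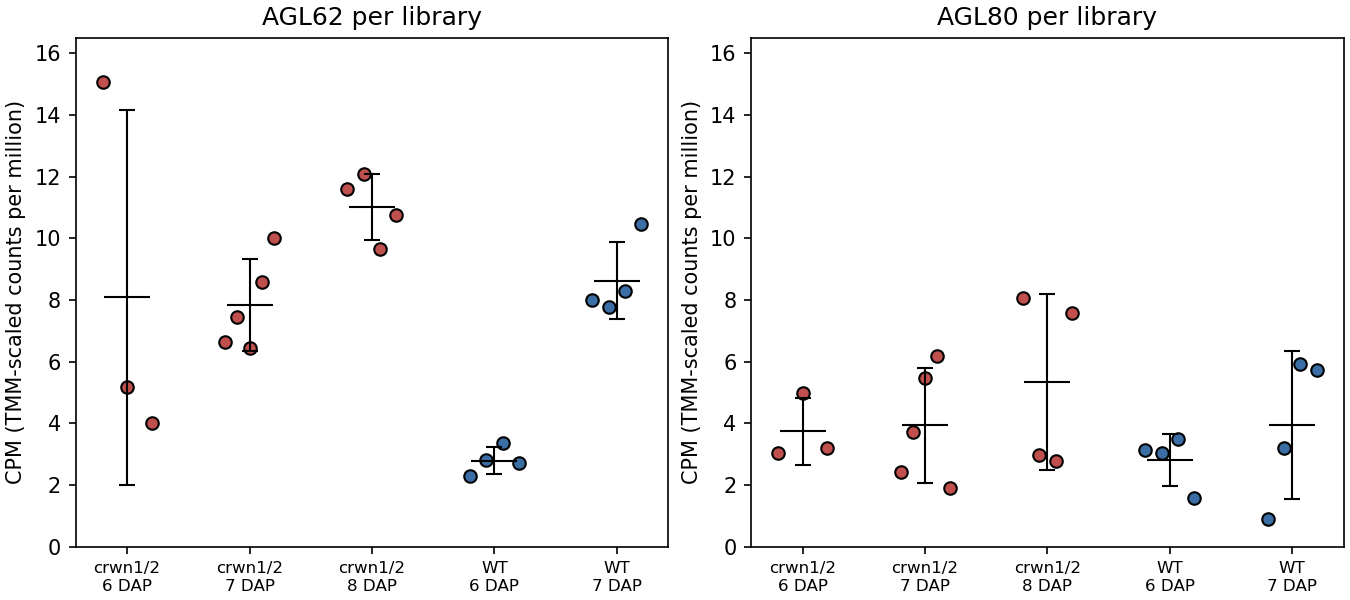
CPM of AGL62 (left) and AGL80 (right) in each of the 20 libraries, with crwn1/2 in red and WT in blue; horizontal bars are group means and error bars SD. AGL62 is lowest in the 4 WT libraries of 6 DAP, and its highest value, 15.1 CPM, is crwn1/2 replicate 1 of the same day, while the AGL80 groups overlap.

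**Figure D2:**
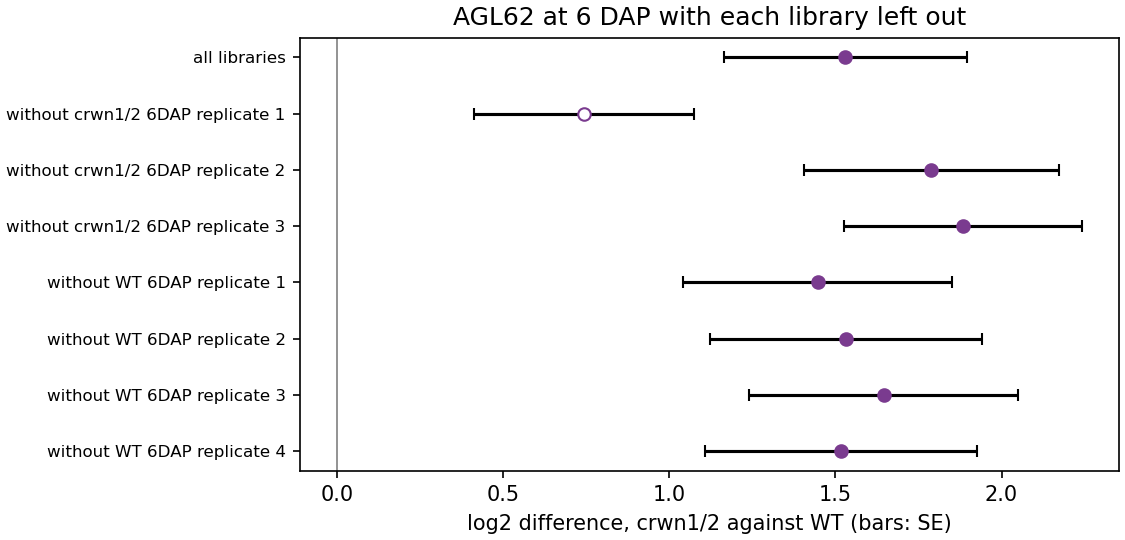
Log2 difference of AGL62 between crwn1/2 and WT at 6 DAP with all libraries and with each library left out; bars are SE and filled points have an edgeR adjusted p under 0.05. The difference is 0.74 without crwn1/2 replicate 1 and 1.45 to 1.88 without each other library in turn.

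Markers of other seed tissues were set beside the AGL62 values of 6 DAP. The 8 seed coat markers summed to 1805 to 2393 CPM in crwn1/2 and 1559 to 1886 CPM in WT, so their transcripts were counted in both genotypes. Whether these transcripts came from the seed coat was not tested. The 8 endosperm markers summed to 305 to 554 CPM in crwn1/2 and 276 to 327 CPM in WT, and none was at 0 in all libraries. The 9 embryo markers summed to 95.9 to 141 CPM in crwn1/2 and 101 to 123 CPM in WT, and the chalazal endosperm markers IPT4 and IPT8 to at most 0.0978 CPM in crwn1/2 and 0.243 CPM in WT. All 4 sums overlapped between the genotypes, but single markers moved apart. Among seed coat markers BAN (1.46, edgeR adjusted p 3.54e-05) and TT12 (2.30, adjusted p 0.00648) were higher in crwn1/2, and MUM4 (-1.31, adjusted p 0.000552), GL2 (-1.26, adjusted p 0.000445) and PMEI6 (-2.67, adjusted p 0.0425) were lower. Among endosperm markers FWA (1.97, edgeR adjusted p 0.00134), HDG3 (1.04, adjusted p 0.0412) and MEA (1.82, adjusted p 0.0222) were higher and 0 lower, a count of 3 that was 1 without crwn1/2 replicate 2 or WT replicate 1 or 3. The endosperm marker ZOU went the other way (-0.63, edgeR adjusted p 0.0516). The number of endosperm markers lower was 1 with genes only, with only the groups compared and with a replicate block. Of the embryo markers WOX2 was higher (3.04, edgeR adjusted p 0.0111). Of all features 6.38% were called higher and 6.26% lower on that day. The crwn1/2 library with the highest AGL62, replicate 1, had the lowest endosperm marker sum of its group, 305 CPM, and seed coat markers of 2239 CPM. Replicate 2 had 553.8 CPM of endosperm markers and 1805 CPM of seed coat markers. Replicate 3, with the lowest AGL62 of the group, had 442.5 CPM and the highest seed coat sum, 2393 CPM. The part of these cell types in the AGL62 difference was not tested.

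At 7 DAP AGL62 stood at 6.63, 7.46, 6.43, 8.57 and 10.02 CPM in the 5 crwn1/2 libraries, with 60 to 114 counts each. In the 4 WT libraries it stood at 7.99, 7.76, 8.29 and 10.5 CPM, with 58 to 74 counts each. The ranges overlapped, and 3 of the 5 crwn1/2 libraries lay below every WT library. Means were 7.82 ± 1.49 CPM in crwn1/2 (SD, n = 5) and 8.62 ± 1.24 CPM in WT (SD, n = 4). The log2 difference of -0.14 (SE 0.313, BH-adjusted edgeR p 0.784) had a 95% interval of -0.79 to 0.50, so a change of 2-fold in either direction lay outside it. On that day 24.4% of all features were called, 10.9% higher and 13.5% lower in crwn1/2.

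At 8 DAP the 4 crwn1/2 libraries held AGL62 at 11.6, 12.1, 9.65 and 10.7 CPM, the highest group mean of the study at 11.01 ± 1.06 CPM (SD). Set against WT at 7 DAP, the libraries overlapped and the log2 difference was 0.35 (SE 0.328, 95% interval -0.32 to 1.03, BH-adjusted edgeR p 0.503). In that comparison 13.9% of features were called.

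The change with time was then followed in each genotype. In WT, AGL62 averaged 8.62 ± 1.24 CPM at 7 DAP and 2.79 ± 0.447 CPM at 6 DAP (SD, n = 4 each), and every library of 7 DAP lay above every library of 6 DAP. The rise was 1.62 on the log2 scale (SE 0.35, 95% interval 0.90 to 2.35, BH-adjusted edgeR p 0.00199). Features called higher between these days were 9.58% of those tested, and 10.5% were called lower, 20% in all, and 12.6% had all libraries of 7 DAP above those of 6 DAP. This was the firmest result for AGL62: it passed on leaving out each library, with adjusted p of 0.00348 to 0.01, and under every other alternative run. In WT, seed coat markers summed to 1067 to 1543 CPM at 7 DAP and 1559 to 1886 CPM at 6 DAP. Endosperm markers summed to 177 to 282 CPM at 7 DAP and 276 to 327 CPM at 6 DAP, and embryo markers to 109 to 141 CPM at 7 DAP and 101 to 123 CPM at 6 DAP. The seed coat sums did not overlap between the days. Within the endosperm sum the markers did not move together: HDG3 averaged 16.4 ± 7.70 CPM at 7 DAP and 142 ± 15.6 CPM at 6 DAP, and ZOU 199 ± 64.2 CPM at 7 DAP and 132 ± 8.57 CPM at 6 DAP (SD, n = 4 each). Their part in the rise was not tested.

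In crwn1/2 no such rise was found. AGL62 differed by -0.05 (SE 0.339, 95% interval -0.75 to 0.65, BH-adjusted edgeR p 0.949) between 7 and 6 DAP, where 11.2% of features were called. Between 8 and 7 DAP it differed by 0.49 (SE 0.308, 95% interval -0.14 to 1.13, BH-adjusted edgeR p 0.417), with 3.95% of features called. Between 8 and 6 DAP it differed by 0.45 (SE 0.355, 95% interval -0.29 to 1.18, BH-adjusted edgeR p 0.378), with 24.8% of features called. The comparisons with 6 DAP again turned on crwn1/2 replicate 1 of that day. Without it AGL62 differed by 0.76 (edgeR adjusted p 0.146) between 7 and 6 DAP, and between 8 and 6 DAP it rose by 1.25 (edgeR adjusted p 0.0104).

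Whether the genotype effect on AGL62 differed between the days was tested as an interaction. The effect at 7 DAP was lower than that at 6 DAP by a log2 of -1.67 (SE 0.482, 95% interval -2.66 to -0.68), with an unadjusted p of 0.002 by edgeR and an adjusted p of 0.0536. It did not pass the threshold, which 3.49% of features did. The value lay on the edge: it passed with DESeq2 (-1.702, adjusted p 0.0102) and without crwn1/2 6 DAP replicate 3 (-1.98, edgeR adjusted p 0.022), and it was -0.84 (edgeR adjusted p 0.286) without crwn1/2 6 DAP replicate 1.

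Across ages, the crwn1/2 libraries of 7 DAP were also compared with the younger WT libraries of 6 DAP. The crwn1/2 libraries of 6.43 to 10.02 CPM all lay above the WT libraries of 2.29 to 3.37 CPM. AGL62 was 2.79-fold higher in crwn1/2, a difference on the log2 scale of 1.48 (SE 0.336, 95% interval 0.79 to 2.17, BH-adjusted edgeR p 0.00752). Features called higher were 3.99% of those tested, out of 7.04% called in either direction, and 5.17% had all crwn1/2 libraries above those of WT. All 3 comparisons in which AGL62 passed the threshold share the 4 WT libraries of 6 DAP, so they are not separate evidence.

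Ranked by mean, AGL62 ran from crwn1/2 at 8 DAP through WT at 7 DAP, crwn1/2 at 6 DAP and crwn1/2 at 7 DAP down to WT at 6 DAP. The place of crwn1/2 at 6 DAP above crwn1/2 at 7 DAP rested on replicate 1: the medians were 7.46 CPM at 7 DAP and 5.20 CPM at 6 DAP. Among neighbours in this order that were compared, the step from crwn1/2 at 7 DAP to WT at 6 DAP passed the edgeR threshold. The step from crwn1/2 of 8 DAP (11.01 ± 1.06 CPM, SD) to WT of 7 DAP (8.62 ± 1.24 CPM, SD) did not. Nor did that within crwn1/2 from 6 to 7 DAP, and WT of 7 DAP was not compared with crwn1/2 of 6 DAP.

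**Figure D3:**
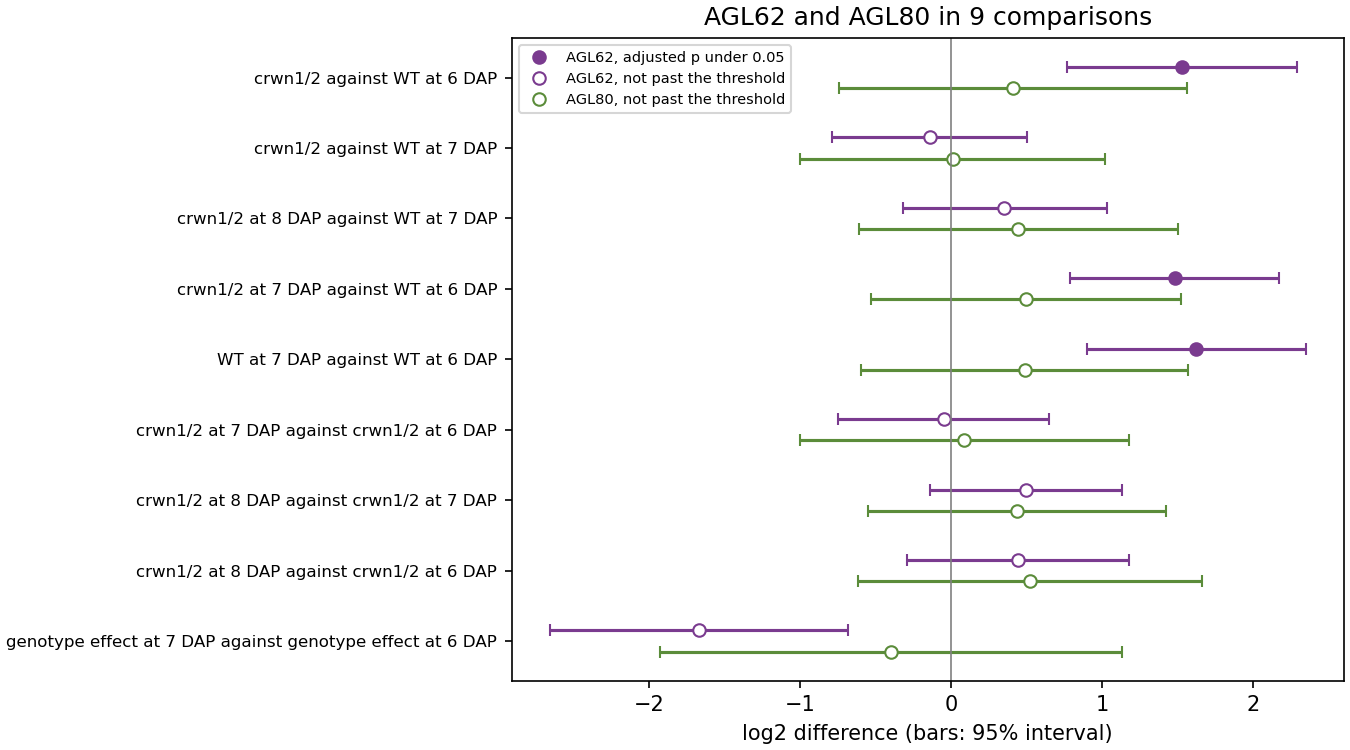
Log2 differences of AGL62 (purple) and AGL80 (green) in the 9 comparisons, with 95% intervals from the edgeR fit; filled points have an adjusted p under 0.05. The 3 filled points, 1.53, 1.48 and 1.62, are all AGL62 and all have WT at 6 DAP as the second group.

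AGL80 gave a different picture, with low counts and a wide spread in every group of 7 and 8 DAP. At 6 DAP it stood at 3.03, 4.99 and 3.20 CPM in crwn1/2, from 31, 49 and 36 counts, and at 3.13, 3.04, 3.50 and 1.58 CPM in WT, from 26, 25, 27 and 14 counts. The groups overlapped, with means of 3.74 ± 1.09 CPM in crwn1/2 (SD, n = 3) and 2.81 ± 0.844 CPM in WT (SD, n = 4). The log2 difference was 0.41 (SE 0.559, 95% interval -0.74 to 1.56, BH-adjusted edgeR p 0.679). Here AGL80 did not share the high value of AGL62 in crwn1/2 replicate 1, which had the lowest AGL80 of its group.

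At 7 DAP AGL80 stood at 2.43, 3.73, 5.49, 6.17 and 1.90 CPM in crwn1/2, from 22, 54, 58, 82 and 14 counts. In WT it stood at 0.887, 3.21, 5.94 and 5.74 CPM, from 7, 24, 53 and 39 counts. The spread within each genotype was larger than the distance between their means, which were 3.94 ± 1.86 CPM in crwn1/2 (SD, n = 5) and 3.95 ± 2.39 CPM in WT (SD, n = 4). The log2 difference was 0.01 (SE 0.487, BH-adjusted edgeR p 0.992). Its 95% interval of -1 to 1.02 does not leave out a change of just 2-fold.

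In crwn1/2 at 8 DAP AGL80 split into 2 libraries at 8.05 and 7.57 CPM and 2 at 2.99 and 2.78 CPM, a mean of 5.35 ± 2.85 CPM (SD, n = 4). Against WT at 7 DAP the log2 difference was 0.44 (SE 0.512, 95% interval -0.61 to 1.50, BH-adjusted edgeR p 0.601). Against crwn1/2 at 7 and at 6 DAP it was 0.43 (SE 0.478, BH-adjusted edgeR p 0.693) and 0.52 (SE 0.554, BH-adjusted p 0.521).

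No other comparison moved AGL80 past the threshold; its unadjusted p by edgeR was 0.327 or more in all 9, and its DESeq2 adjusted p 0.496 or more. Between 7 and 6 DAP it differed by 0.09 (SE 0.529, 95% interval -1 to 1.18, BH-adjusted edgeR p 0.941) in crwn1/2 and by 0.49 (SE 0.525, 95% interval -0.60 to 1.57, BH-adjusted edgeR p 0.54) in WT. With crwn1/2 of 7 DAP compared with WT of 6 DAP, the difference was 0.50 (SE 0.497, 95% interval -0.53 to 1.52, BH-adjusted edgeR p 0.626). The interaction was -0.40 (SE 0.742, 95% interval -1.93 to 1.13, BH-adjusted edgeR p 0.818). These intervals do not leave out changes of 2-fold or more. The biological coefficient of variation estimated by edgeR was 0.478 for AGL80, 0.314 for AGL62 and 0.277 at the median of all features.

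Over the 20 libraries the log2 CPM of AGL62 and AGL80 had a Pearson correlation of 0.255 and a Spearman correlation of 0.203, given as a description since the libraries fall into 5 groups. The genes most like each of them were taken from 13975 genes with a mean of at least 10 CPM. For AGL62 they were AT5G21020 (r = 0.898), AT3G23080 (0.853), ATG8F (0.853), AT5G57655 (0.851) and PP2C52 (0.85). ATG8F encodes a member of the ATG8 family of autophagy proteins and PP2C52 a protein phosphatase of the 2C type.

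All of these genes had their lowest group mean in WT at 6 DAP, as AGL62 did, which restates how they were picked. ATG8F averaged 109 CPM in crwn1/2 and 73.3 CPM in WT at 6 DAP, and 108 CPM in crwn1/2 and 131 CPM in WT at 7 DAP. WT at 6 DAP held 0.254 of the highest group mean for AGL62, and 0.305 to 0.575 of it for the 5 genes. For AGL80 the most similar genes were SHV3 (r = 0.769), AT1G03280 (0.741), CPL2 (0.716), HAC12 (0.712) and AT1G16825 (0.709). SHV3 encodes a glycerophosphodiester phosphodiesterase-like protein, CPL2 a phosphatase-like protein of the RNA polymerase II tail and HAC12 a histone acetyltransferase. These correlations were weaker than those of AGL62, and group, library and depth are shared by all points.

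**Figure D4:**
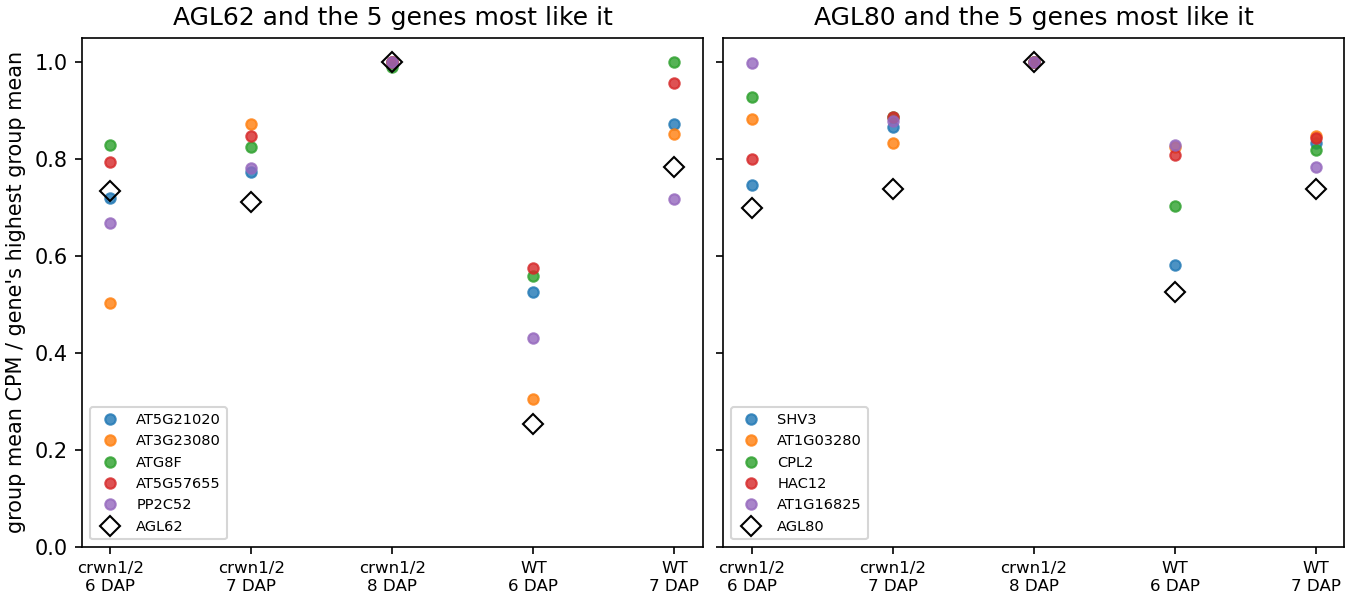
Group mean CPM divided by the highest group mean of the same gene, for AGL62 (left) and AGL80 (right, open diamonds) and the 5 genes with the most similar log2 CPM over the 20 libraries. AGL62 and its 5 genes are lowest in WT at 6 DAP, at 0.254 for AGL62, while the AGL80 group means lie closer together.

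Partners and relatives were examined next, from lists written with earlier results of these data known. AGL61, the dimer partner of AGL80 in the central cell, had at most 8 counts in any library and was too low to test. Its values were 0 to 0.815 CPM in crwn1/2 and 0 to 0.761 CPM in WT.

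Among relatives of AGL62 in the M-alpha group of type I genes, 4 of 15 listed genes had enough counts to test. AGL102 and AGL29, M-alpha genes without a well-known role in the endosperm, were the ones called. AGL102 was higher in crwn1/2 at 6 DAP by a log2 of 1.83 (SE 0.41, BH-adjusted edgeR p 0.00433) and at 7 DAP by 1.92 (SE 0.393, BH-adjusted p 0.00165). Without crwn1/2 6 DAP replicate 2 the first of these was 0.85 (edgeR adjusted p 0.166). AGL29 stood at 6.74, 9.19, 5.67, 7.75 and 8.66 CPM in crwn1/2 and 4.69, 1.87, 2.13 and 1.47 CPM in WT at 7 DAP. Its log2 difference was 1.57 (SE 0.329, BH-adjusted edgeR p 0.00192) at 7 DAP and 0.23 (adjusted p 0.706) at 6 DAP. In all, 1 of the 4 was called higher at 6 DAP and 2 at 7 DAP, beside 6.38% and 10.9% of all features, and edgeR called 0 lower. The filter on low counts keeps a gene that is high in a single group, as AGL91 was with 210 counts in all crwn1/2 and 19 in all WT libraries of 6 DAP, so nothing is read from these counts.

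Among relatives of AGL80 in the M-gamma group, 9 of 12 listed genes were tested. At 6 DAP edgeR called 7 higher and 0 lower in crwn1/2, and at 7 DAP 3 higher and 0 lower, beside 6.38% of all features higher at 6 DAP and 10.9% at 7 DAP. AGL36, AGL86, AGL90, AGL92 and AGL96 averaged 0.0911 to 0.277 CPM in WT at 6 DAP and passed the filter through their level in crwn1/2, so nothing is read from the counts here either. With only the groups compared, 3 were higher at 6 DAP, and DESeq2 called 1 lower. Single libraries moved the count too: without crwn1/2 6 DAP replicate 2 the number higher at 6 DAP was 2, without replicate 1 it was 5, and without each of the 4 WT libraries of 6 DAP in turn it was 3 or 4.

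PHE1, a paternally expressed imprinted gene of the endosperm and a known target of FIS-PRC2, and its close relative PHE2 belong to this group. PHE1 stood at 21.7, 38.1 and 4.88 CPM in crwn1/2 and 0.481, 0.365, 0.259 and 2.72 CPM in WT at 6 DAP. Every crwn1/2 library was above every WT library, as for 10.8% of all features. At 7 DAP PHE1 stood at 9.06, 0.484, 0.284, 17 and 26.7 CPM in crwn1/2 and at 0.634, 0.134, 0.112 and 0.147 CPM in WT, and there the groups overlapped. The log2 differences were 4.45 (SE 1.06, BH-adjusted edgeR p 0.00709) at 6 DAP and 5.30 (SE 1.2, BH-adjusted p 0.00343) at 7 DAP, on 33 WT counts and 8 WT counts in all. PHE2 differed by 5.60 (SE 1.04, BH-adjusted edgeR p 0.000821) at 6 DAP and 4.28 (SE 0.966, BH-adjusted p 0.00327) at 7 DAP, on 11 WT counts and 13 WT counts in all. Like AGL90, PHE1 and PHE2 passed the filter on low counts through their level in crwn1/2, so nothing is read from these calls. Whether reads could match both PHE1 and PHE2, and how such reads were counted, was not checked.

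AGL90, another M-gamma gene, differed by 3.81 (SE 1.24, BH-adjusted edgeR p 0.0436) at 6 DAP, and it missed the threshold on leaving out 6 of the 7 libraries in turn (adjusted p 0.0586 to 0.132). In crwn1/2 at 6 DAP AGL90 stood at 4.11, 2.65 and 0.0888 CPM in replicates 1, 2 and 3, highest in replicate 1 as AGL62 was. PHE1, PHE2 and AGL102 were highest in replicate 2.

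**Figure D5:**
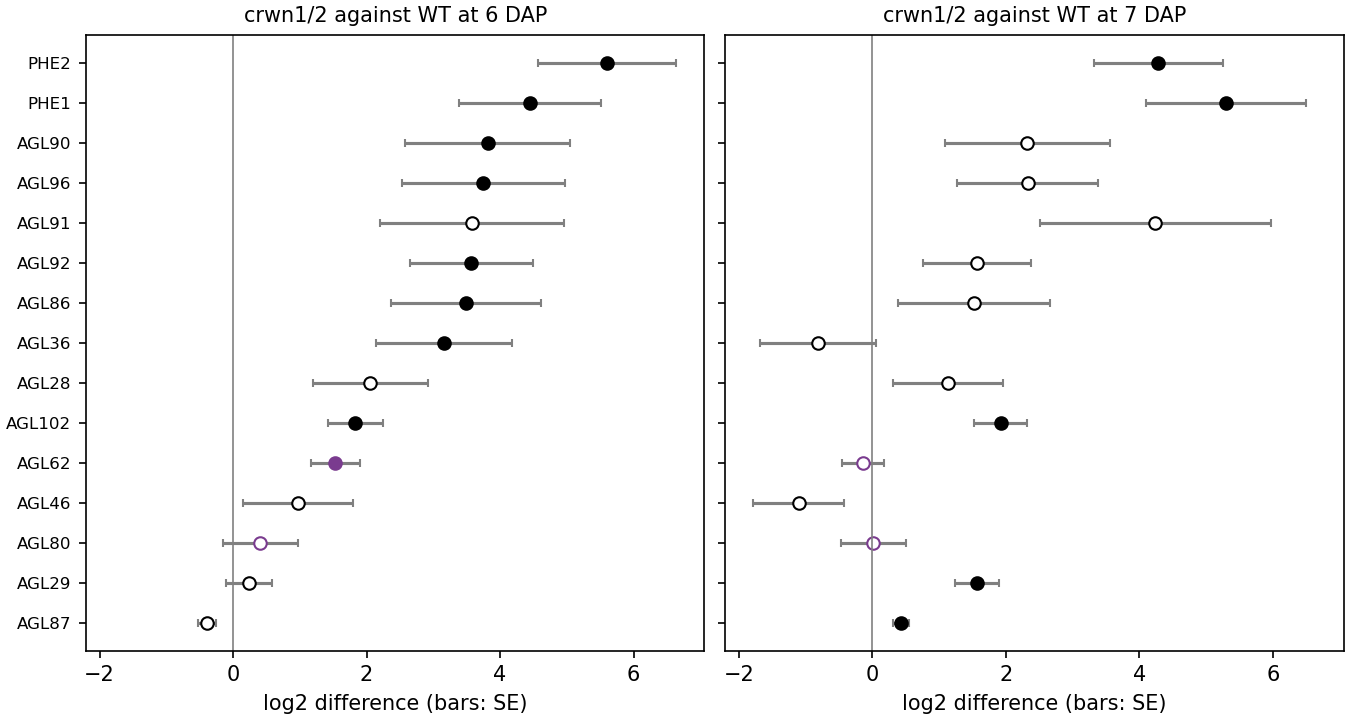
Log2 differences between crwn1/2 and WT at 6 DAP (left) and 7 DAP (right) for AGL62 and AGL80 (purple) and the listed type I MADS-box genes with enough counts (black); bars are SE and filled points have an edgeR adjusted p under 0.05. AGL62 lies at 1.53 and -0.14 and AGL80 at 0.41 and 0.01; fitted values of AGL91 and AGL96 rest on 2 or 3 counts in one WT group.

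The regulators of AGL62 in FIS-PRC2 were all tested. Of MEA, FIS2, FIE and MSI1, MEA was called higher at 6 DAP and FIE at 7 DAP, and 0 were lower. The shares of all features called higher were 6.38% at 6 DAP and 10.9% at 7 DAP, and in either direction 12.6% and 24.4%. With only 4 genes, 1 call says little on either day. MEA, the methyltransferase of the complex, stood at 4.30, 11.2 and 5.24 CPM in crwn1/2 and 1.20, 3.04, 1.04 and 2.49 CPM in WT at 6 DAP. The log2 difference was 1.82 (SE 0.52, BH-adjusted edgeR p 0.0222), and -1.03 (SE 0.45, BH-adjusted p 0.0956) at 7 DAP. MEA missed the threshold at 6 DAP without crwn1/2 replicate 2 (1.31, edgeR adjusted p 0.163) and without WT replicate 1 (1.65, adjusted p 0.0681) or 3 (1.63, adjusted p 0.063).

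FIS2, the zinc finger subunit that names the complex, averaged close levels, with log2 differences of -0.05 (SE 0.464, BH-adjusted edgeR p 0.962) at 6 DAP and 0.03 (SE 0.433, BH-adjusted p 0.966) at 7 DAP. FIE, the WD40 subunit shared with other PRC2 forms, was higher in crwn1/2 by 0.80 (SE 0.138, BH-adjusted edgeR p 0.000356) at 7 DAP. The median of the 4 genes was -0.01 at 6 DAP and -0.15 at 7 DAP.

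Genes of the central cell and its neighbours, the setting of AGL80, were tested for 6 of 7 listed names. DME, a DNA demethylase that activates FWA and MEA in the central cell and whose expression there depends on AGL80, differed by -0.39 (SE 0.159, BH-adjusted edgeR p 0.109) at 6 DAP and -0.13 (SE 0.138, BH-adjusted p 0.521) at 7 DAP. FWA, an imprinted homeodomain gene, stood at 30.7, 46.3 and 24.5 CPM in crwn1/2 and 11.4, 8.64, 4.93 and 9.39 CPM in WT at 6 DAP. Its log2 difference was 1.97 (SE 0.387, BH-adjusted edgeR p 0.00134), and 1.80 (SE 0.378, BH-adjusted p 0.00195) at 7 DAP. With MEA, 2 of the 6 were higher at 6 DAP, FWA alone at 7 DAP, and 0 lower, beside 6.38% of all features higher at 6 DAP and 10.9% at 7 DAP. The list also holds MYB98, known as a factor of the synergids rather than the central cell, with -1.64 (edgeR adjusted p 0.085) at 6 DAP and -0.78 (adjusted p 0.239) at 7 DAP. The median of the 6 genes was -0.16 at 6 DAP and -0.46 at 7 DAP, below 0 although the calls were upward.

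In the auxin step downstream of AGL62, edgeR called 0 of 4 genes in either direction at 6 or at 7 DAP, where 12.6% and 24.4% of all features were called, so 0 of 4 says little. At an unadjusted p under 0.05 there were 1 gene at 6 DAP and 0 at 7 DAP, and DESeq2 called 1 lower at 6 DAP and 0 at 7 DAP. YUC10, which makes auxin in the endosperm, differed by -0.34 (SE 0.376, BH-adjusted edgeR p 0.594) at 6 DAP and 0.07 (SE 0.321, BH-adjusted p 0.905) at 7 DAP. ABCB10, a transporter tied to AGL62-dependent auxin export, differed by 0.16 (SE 0.563, BH-adjusted edgeR p 0.884) at 6 DAP and 0.72 (SE 0.538, BH-adjusted p 0.356) at 7 DAP. In WT, the difference of ABCB10 between 7 and 6 DAP was -1.68 (SE 0.561, BH-adjusted edgeR p 0.0368), a call lost on leaving out 6 of the 8 libraries in turn (adjusted p 0.0527 to 0.0889).

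Genes of cellularization and cytokinesis, the process that AGL62 holds back, were all 13 tested. At 6 DAP 1 was higher and 4 were lower in crwn1/2, beside 6.38% of all features higher and 6.26% lower. At 7 DAP 1 was higher and 0 lower, beside 10.9% and 13.5%. The median log2 difference was -0.52 at 6 DAP and 0.015 at 7 DAP, against -0.007 and 0.024 over all features. PLE, a microtubule-bundling protein of the phragmoplast, stood at 49.9, 38.9 and 52.3 CPM in crwn1/2 and 91.3, 88.3, 86.5 and 91.2 CPM in WT at 6 DAP. PLE differed by -0.93 (SE 0.162, BH-adjusted edgeR p 0.000415) at 6 DAP and 0.03 (SE 0.139, BH-adjusted p 0.889) at 7 DAP. POK2, a kinesin that guides the phragmoplast, differed by -0.85 (SE 0.228, BH-adjusted edgeR p 0.0152) at 6 DAP and 0.29 (SE 0.199, BH-adjusted p 0.308) at 7 DAP. SNAP33, a vesicle fusion protein of the cell plate that also acts in defence, was higher by 0.89 (SE 0.171, BH-adjusted edgeR p 0.00115) at 6 DAP. EDE1, a microtubule-associated protein of the endosperm, differed by -0.52 (SE 0.354, BH-adjusted edgeR p 0.363) at 6 DAP and 0.52 (SE 0.318, BH-adjusted p 0.249) at 7 DAP. The number lower at 6 DAP was 2 without the filter on low counts, 1 without crwn1/2 replicate 2 and 2 without crwn1/2 replicate 1 or WT replicate 4. POK2 missed the threshold without crwn1/2 replicate 1 (-0.74, edgeR adjusted p 0.0679) or 2 (-0.74, adjusted p 0.0911).

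Of the HAIKU and ZHOUPI genes, which set endosperm growth and breakdown, 5 of 7 were tested. At 6 DAP 2 were higher and 0 lower in crwn1/2, beside 6.38% of all features higher and 6.26% lower. At 7 DAP 1 was higher and 1 lower, beside 10.9% and 13.5%. The median log2 difference was 1.08 at 6 DAP and 0.094 at 7 DAP. At 6 DAP 1 was lower with genes only, with only the groups compared and with a replicate block. IKU1, a VQ-motif protein of the HAIKU pathway, was higher by 1.08 (SE 0.251, BH-adjusted edgeR p 0.00567) at 6 DAP and 0.81 (SE 0.231, BH-adjusted p 0.0139) at 7 DAP. CKX2, a cytokinin oxidase, was higher by 2.00 (SE 0.631, BH-adjusted edgeR p 0.0378) at 6 DAP, a call lost on leaving out 5 of the 7 libraries in turn (adjusted p 0.057 to 0.134). ZOU, the bHLH factor of endosperm breakdown, stood at 73.4, 76.1, 86.2, 85.6 and 109 CPM in crwn1/2 and 252, 254, 159 and 129 CPM in WT at 7 DAP. The log2 difference of ZOU was -1.21 (SE 0.184, BH-adjusted edgeR p 9.59e-05). At 6 DAP ZOU differed by -0.63 (SE 0.213, BH-adjusted edgeR p 0.0516). The IKU1 difference at 7 DAP was 0.65 (edgeR adjusted p 0.0645) without WT replicate 1. With the percentage of no-feature reads added to the model, ZOU at 7 DAP was -0.88 (edgeR adjusted p 0.0747) and IKU1 0.55 (adjusted p 0.427); that percentage was 4.05% to 4.68% in crwn1/2 and 4.81% to 5.92% in WT on this day.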

How the data were processed

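The values are deposited read counts per gene and transposable element, whole numbers as checked in the files, made by the authors with Trim Galore 0.6.7, STAR 2.7.1a and HTSeq on TAIR10, per the submitters' processing notes. The strand setting was not given in the sources used here. Reads outside features made up 4.05% to 5.92% and ambiguous reads 1.19% to 1.52% of counted reads, and both stayed out of the totals.

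Groups came from the labels. A single edgeR 4.0.16 quasi-likelihood model in R 4.3.3 held all 20 libraries with a term per group, TMM scaling and the edgeR filter (count minimum 10, total minimum 15), which kept 24696 of 63867 features. Tests were two-sided, with Benjamini-Hochberg adjustment over these features and a threshold of 0.05. Likeness used log2 CPM at a prior count of 2. Alternatives were DESeq2 1.42.0, other scaling, filters, features, groups, a replicate block, a covariate and each library left out.

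The 2 genes and the gene lists were chosen with earlier results of these data known. From the lists, AGL61, PHE1, MEA, FIS2, DME, YUC10, ABCB10 and EDE1 were named whatever their values, with up to 3 called genes of largest difference per list. Listed names that the reference table did not pair with their identifier were dropped. The authors' H3K27me3 peak lists, with counts per peak per the file headers, held 3961 to 5671 peaks. They were not placed on genes, because the gene table is named TAIR10.1 and the submitters' notes name TAIR10. Whether the coordinates of the 2 differ at these genes was not checked.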

Additional observations from a re-analysis of the deposited data

Results flagged for a closer look

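Neither AGL62 nor AGL80 had a library that stood apart by Dixon's test in the groups of 4 or 5; crwn1/2 at 6 DAP, with 3 libraries, was too small for it. Among the other named genes it singled out AGL102 at 16.52 CPM and AGL90 at 2.48 CPM in a library of crwn1/2 at 7 DAP, PHE1 at 2.72 CPM in WT at 6 DAP and 0.634 CPM in WT at 7 DAP, and YUC10 at 20.0 CPM, the lowest of crwn1/2 at 8 DAP. Chance alone singles out about 1 in 20 groups, and 84 were tested.

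The genotype effect at 7 DAP differed from that at 6 DAP, by the edgeR interaction test, for MEA (-2.85, adjusted p 0.0225), FIE (0.81, adjusted p 0.0315), PLE (0.96, adjusted p 0.0144), POK2 (1.14, adjusted p 0.0369), ATG8F (-0.85, adjusted p 0.00993) and AT5G57655 (-0.64, adjusted p 0.0487). Of all features 3.49% passed this test. Leaving out single libraries ended the calls of MEA (adjusted p up to 0.0968), FIE (0.0725), POK2 (0.094) and AT5G57655 (0.124). The replicate block ended those of FIE (0.0898), POK2 (0.0975) and AT5G57655 (0.0737), and leaving off the filter on low counts ended those of ATG8F (-0.69, adjusted p 0.0874) and AT5G57655 (-0.49, adjusted p 0.266). ATG8F and AT5G57655 had been picked for their likeness to AGL62 in the same libraries. FIE, PLE and POK2 had been named for their differences at 6 or 7 DAP in these libraries. Such a choice favours a difference between the days, so nothing is read from these calls. With the percentage of no-feature reads added to the model none of the 6 passed (adjusted p 0.065 to 0.368).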

How the results depend on the processing

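Of 144 alternative values for each gene, AGL62 kept its direction and side of the threshold in 133 and AGL80 in 131. Leaving out each library in turn gave AGL62 0.74 to 1.88 at 6 DAP, -0.39 to 0.76 for crwn1/2 at 7 against 6 DAP, 0.11 to 1.25 for crwn1/2 at 8 against 6 DAP and -1.98 to -0.84 for the interaction. It gave AGL80 -0.34 to 0.28 at 7 DAP and -0.13 to 0.34 for crwn1/2 at 7 against 6 DAP. With only the groups compared AGL62 at 6 DAP was 1.51 (edgeR adjusted p 0.0633). The AGL62 interaction passed with other size factors (RLE, -1.71, adjusted p 0.0482), DESeq2 (-1.702, adjusted p 0.0102) and genes only (-1.69, adjusted p 0.0496). On leaving out each library in turn it stayed short of the threshold in 14 of 16 fits and passed in the rest. AGL62 at 7 DAP changed sign with no filter (0.086). AGL80 at 7 DAP changed sign with RLE (-0.019), genes only (-0.025), only the groups compared (-0.02) and the share of reads outside features as covariate (-0.46), and for crwn1/2 at 7 against 6 DAP with that covariate (-0.12). The cause was not tested.

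The replicate numbers did not pair the libraries: deviations of same-numbered libraries correlated at -0.197 to 0.14 over 36 pairs (median -0.009), and 5 of 20 libraries correlated best with their own number. With a replicate block AGL62 was 1.47 at 6 DAP (edgeR adjusted p 0.0202), 1.61 for WT between days (adjusted p 0.00446) and 1.36 between crwn1/2 of 7 DAP and WT of 6 DAP (adjusted p 0.0359), and the block changed no other call of the 2 genes.

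Counts of features called moved by over 1.5 times as follows. At 7 DAP 6034 became 10105 without the filter, 737 with the covariate and 3953 without WT 7 DAP replicate 1; at 6 DAP 3122 became 1787 without crwn1/2 6 DAP replicate 2, which also took 2769 between 7 and 6 DAP in crwn1/2 to 1395. The interaction count of 862 became 1608 with DESeq2, 1423 without the filter, 488 with the block, 146 with the covariate and 478 to 569 without crwn1/2 6 DAP replicate 2 or WT 6 DAP replicates 1, 3 or 4. For crwn1/2 at 8 against 7 DAP 976 became 1625 with DESeq2, 161 with the covariate and 458 to 515 without crwn1/2 7 DAP replicate 1 or 8 DAP replicates 1, 3 or 4. Between crwn1/2 of 8 DAP and WT of 7 DAP 3442 became 1932 to 2279 without crwn1/2 8 DAP replicates 1, 3 or 4. Between crwn1/2 of 7 DAP and WT of 6 DAP 1739 became 1031 with the block and 1097 or 1108 without WT 6 DAP replicates 1 or 3, and for WT between days 4950 became 2574 with the covariate. Alternatives for the listed genes were chosen after seeing the data.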
